A study of Mus musculus with 12 samples.

Results

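The DEAD-box and DEAH-box RNA helicases are enzymes that use ATP to open RNA duplexes or to pull proteins off RNA, and they are named after a conserved stretch of residues at the ATP-binding site. Many of their genes carry the prefix Ddx or Dhx. Members work in the nucleolus on ribosomal RNA precursors, in the spliceosome, in mRNA export, translation and decay, in mitochondria and in the sensing of viral RNA. Dividing embryonic stem cells make many ribosomes and splice many transcripts, so most of these enzymes serve processes that run in every such cell.

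Members were all genes whose platform symbol begins with Ddx or Dhx followed by a number, with Ddx4 left out. The rule found 50 genes among the 18193 genes named on the array, 34 Ddx and 16 Dhx. Where a gene had several probe sets, the one with the highest mean over the 12 arrays represented it. That mean signal chose the probe set, and the symbol chose the gene. A probe set's signal depends on its own probes, so levels of different genes are not ranked here.

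Transcripts were measured on 12 Affymetrix arrays of TBV2, a wild-type embryonic stem cell line of mouse strain 129/SvP. All cells grew in medium with leukemia inhibitory factor (LIF), the cytokine that keeps mouse stem cells pluripotent, and without added non-essential amino acids. Sparse cultures on gelatin, free of feeders, went on for 5 days with no addition (control, ESCs in the titles) or with 500 µM L-proline (PiCs in the titles). Each group held 2 biological replicates of 3 arrays, lettered a to c with no stated meaning, so the arrays of one number were averaged. How biological replicates were kept apart is not stated, so p-values reflect the spread of these replicate means, part of which may be technical. Only 1 cell line was used.

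Across probe sets, correlations lay between 0.996 and 0.998 within a biological replicate. Pairs from separate replicates of the same group had correlations between 0.985 and 0.989. A control array paired with a proline array gave values between 0.962 and 0.981, not far below those of separate replicates. All 11 stem cell markers examined read above the 40th percentile of probe sets (5.36) in all 4 replicate means (Pou5f1 at 13.56 and 13.32 in control and 13.44 and 12.87 in proline). Of these, 10 measured below 0 (median -0.36), and Esrrb (-1.49, adjusted p = 0.0246), Zfp42 (-1.39, 0.0288) and Fgf4 (-1.13, 0.0361) fell in limma. For other cell types, 5 of 10 fibroblast, 3 of 10 extraembryonic endoderm, 2 of 9 trophoblast and 3 of 8 neural markers read under it in all 4. Among these lists Eomes (2.51), Nes (2) and Fabp7 (1.01) rose and Tubb3 (-1.94) fell, with limma adjusted p of 0.0246, 0.0352, 0.0498 and 0.0359. Log2 summed signals of these lists were 9.17 to 9.76 in control and 9.17 to 9.67 in proline for fibroblast markers, 8.95 to 9.13 and 9.73 to 9.95 for endoderm, 10.75 to 12 and 11.70 to 13.17 for trophoblast, and 9.94 to 10.03 and 10.49 to 10.62 for neural markers. Those of the stem cell markers were 16.19 to 16.23 and 15.77 to 15.84. Probe sets of 18S ribosomal RNA read 10.74 and 10.04 in control and 9.74 and 8.35 in proline. For beta-actin, the 5' probe signal less the 3' one, a sign of RNA integrity, was -0.90 and -0.50 in control and -0.66 and -0.24 in proline. The part of these differences in the helicase values was not tested.

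The comparison of proline with control asked which helicase transcripts differed once the amino acid was added. Dhx16, which encodes the DEAH-box helicase that starts the first catalytic step of splicing, fell 2.62-fold. It was the single member past an adjusted p of 0.05 in limma fitted over all genes. No member rose. That is 1 of 50 members, against 4.36% of all genes (794 of 18193), 3.03% higher and 1.34% lower. At an unadjusted p under 0.05 there were 16 members, 15 lower and 1 higher, against 22.1% of all genes (9.32% lower).

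Most of the other differences were small and lay on the same side of 0. The log2 fold change was below 0 in 40 of 50 members, against 56.1% of all genes, with a median of -0.25 against -0.03 over all genes. Under quantile normalization and under median centring the counts were 41 and 40. The deposited values were already normalized, with array medians of 5.99 to 6.03, so centring could change little. Among the 5177 genes with a mean signal of at least 8.89, the lower quartile of the members, the median was also -0.03 and 53.5% were below 0. Both proline replicates read below both control replicates in 29 members and above them in 5, against 28.7% and 24.0% of all genes. All 6 proline arrays lay below all 6 control arrays in 23 members, against 10.8% of all genes, but arrays of one replicate are not independent. Of the 5177 genes with a mean signal of at least 8.89, 879 had all 6 proline arrays below. Both proline replicates lay below in 1534 of them and above in 1376. An unadjusted limma p under 0.05 was found in 1303 of them, 629 lower. The median was -0.26 over the Ddx genes (28 of 34 below 0) and -0.24 over the Dhx genes (12 of 16). These counts describe the members, and no test was run on them as a list.

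**Figure D1:**
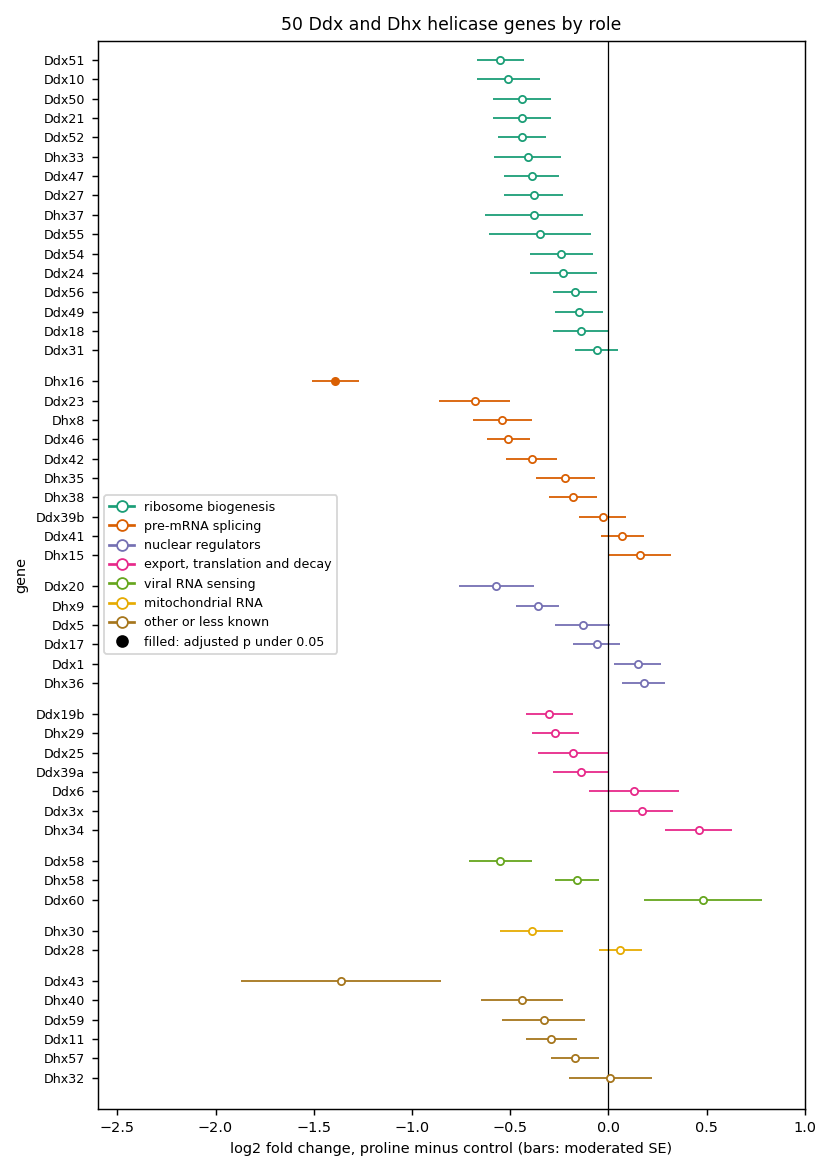
Log2 fold change of proline minus control (horizontal axis) for each of the 50 helicase genes, grouped by role, with bars for limma's moderated standard error from 2 biological replicates per group. All 16 ribosome biogenesis helicases lie left of 0, and Dhx16, the single filled point, lies at -1.39. Roles were assigned with earlier results of these data known.

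Dhx16 was the clearest case. Its probe set (1423925_at) read 11.95 and 11.97 in the control replicates and 10.50 and 10.64 in the proline replicates, a log2 fold change of -1.39 ± 0.12 (moderated SE, limma adjusted p = 0.0246). The 6 control arrays ran from 11.91 to 12.04 and the 6 proline arrays from 10.46 to 10.65, with no overlap. The difference was -1.47 to -1.31 over the 4 pairs of replicates. The gene has 1 probe set, so no second one bears on it. The call ended without any one of the 4 replicates, as it did for every gene, in fits where 1 group has a single replicate and the other alone gives the spread. The adjusted p was 0.119 and 0.0668 without the first and the second control, and 0.0524 and 0.0776 without the first and the second proline replicate. In addition, testing each probe set by itself gave an adjusted p of 0.0520.

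Ddx43, whose product is known from germ cells and tumours, had the next largest difference and a wide spread. It read 8.86 and 7.86 in control and 7.56 and 6.43 in proline, a log2 fold change of -1.36 ± 0.51 (limma adjusted p = 0.221). Replicate 2 lay below replicate 1 by 1 log2 unit in control and by 1.13 in proline. Control replicate 2 stood only 0.30 above proline replicate 1. Dhx16 and Ddx43 were the 2 members with a measured difference of at least 2-fold, against 6.93% of all genes. Ddx43 lost that size without the first control replicate (-0.86) or the second proline replicate (-0.80), and measured -1.86 without the second control and -1.92 without the first proline replicate.

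**Figure D2:**
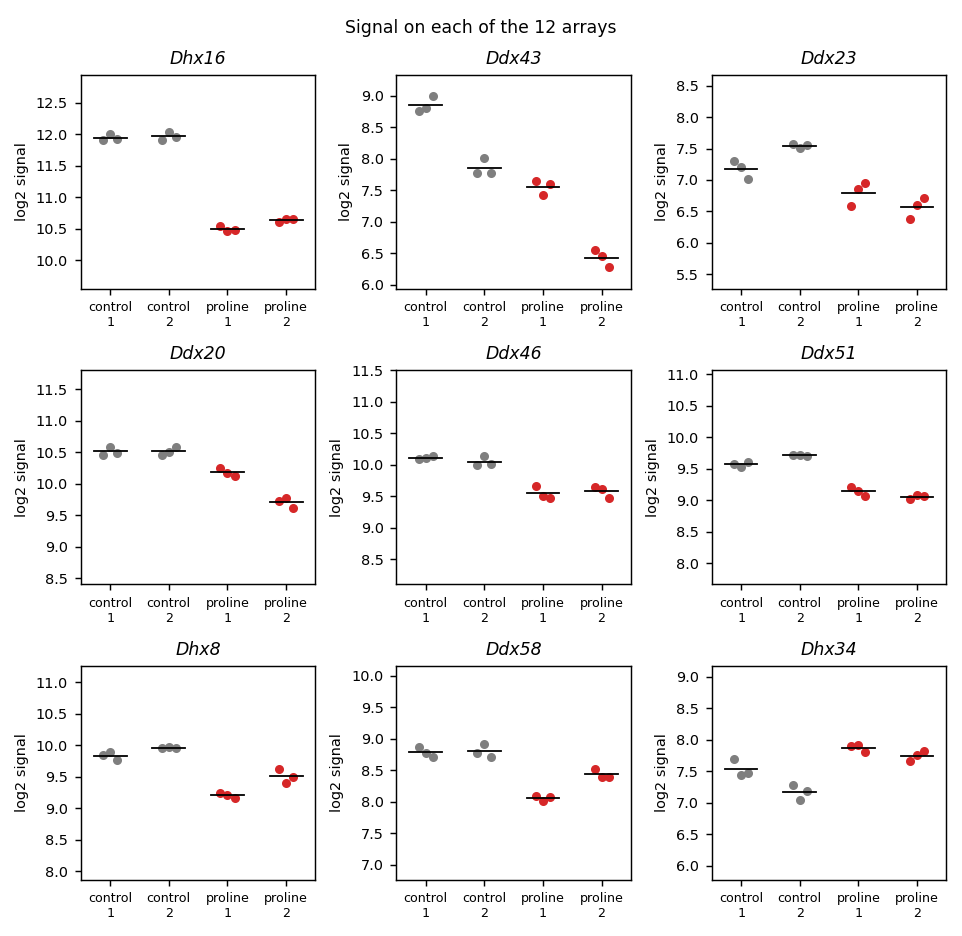
Log2 signal (vertical axis, 3.4 units high in each panel) on each of the 12 arrays for 9 members, with grey points for control, red points for proline and a line at each biological replicate's mean of 3 arrays. Dhx16 shows a gap between the groups far wider than the spread within them, whereas in Ddx43 the replicates of one group stand about 1 log2 unit apart.

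Promoters gave a measure that the choice of members did not use. RefSeq (build GRCm38.p6) gave a start site for 44 of 50 members, and the 250 bases before it were read. Ddx6, Ddx11, Ddx23, Ddx39a, Dhx38 and Dhx58 were not matched. The letters CCGGAA, called the ETS core here, are a form of the site bound by ETS transcription factors. Further forms of that site were not counted. CCGGAA occurred on either strand in 19 of 44 (43.2%). That compares with 19.6% of 14452 genes on the array and 31.2% of the 4289 with a mean signal of at least 8.89. Other ribosome biogenesis factors held CCGGAA in 45.2% and other spliceosome components in 59.4%. The GC box GGGCGG occurred in 65.9%, against 53.4% and 68.5%, and CCAAT in 45.5%, against 39.4% and 41.0%. The E-box CACGTG occurred in 11.4% (8.73% and 11.6%) and TATAAA in 9.09% (10.5% and 6.92%). A match is a description of letters. Motifs were counted independently where they overlapped, and a gene with several start sites counted if any window matched.

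Members with CCGGAA had a median log2 fold change of -0.24 (16 of 19 below 0), and members without it one of -0.33 (19 of 25 below 0). The windows are shown for Dhx16 and Ddx43, the 2 members beyond 2-fold, and for Ddx46 and Ddx51, the next by p. They lie at chr17:35879528-35879777, plus strand (Dhx16), chr9:78395527-78395776, plus strand (Ddx43), chr13:55634749-55634998, plus strand (Ddx46) and chr5:110653201-110653450, plus strand (Ddx51). Capitals mark the ETS core, the GC box or CCAAT on either strand.
Dhx16: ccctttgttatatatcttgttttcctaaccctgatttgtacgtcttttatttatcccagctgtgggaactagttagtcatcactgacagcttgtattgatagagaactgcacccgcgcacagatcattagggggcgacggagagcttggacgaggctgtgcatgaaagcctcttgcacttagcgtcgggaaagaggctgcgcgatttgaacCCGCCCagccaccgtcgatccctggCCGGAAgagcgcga
Ddx43: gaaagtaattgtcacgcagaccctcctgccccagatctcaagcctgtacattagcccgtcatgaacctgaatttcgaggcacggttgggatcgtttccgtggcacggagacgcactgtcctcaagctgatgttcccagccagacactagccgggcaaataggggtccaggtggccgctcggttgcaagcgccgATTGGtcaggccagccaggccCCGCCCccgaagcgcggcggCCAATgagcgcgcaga
Ddx46: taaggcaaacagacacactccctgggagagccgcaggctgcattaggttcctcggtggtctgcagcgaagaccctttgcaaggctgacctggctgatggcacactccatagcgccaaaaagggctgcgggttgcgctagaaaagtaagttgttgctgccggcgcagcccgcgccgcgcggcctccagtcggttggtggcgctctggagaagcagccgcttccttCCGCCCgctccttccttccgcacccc
Ddx51: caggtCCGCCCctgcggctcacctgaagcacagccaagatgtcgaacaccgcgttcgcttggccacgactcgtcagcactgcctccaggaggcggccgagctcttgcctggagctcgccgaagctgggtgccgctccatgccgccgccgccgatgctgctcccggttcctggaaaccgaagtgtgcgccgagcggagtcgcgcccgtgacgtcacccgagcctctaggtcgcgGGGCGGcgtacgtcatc
Of these 4, only the Dhx16 window holds CCGGAA on either strand, near its end, and the Ddx43 window holds CCAAT on both strands. The windows hold 16, 20, 19 and 32 CG pairs, against a median of 19 over the 44 members, 19 over genes with a mean signal of at least 8.89 and 14 over all genes.

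The other spliceosome helicases remodel the machine at successive steps. Besides Dhx16, 9 were measured, and none of them passed. Ddx46, which acts when the branch site is first recognised, read 10.11 and 10.05 in control and 9.55 and 9.59 in proline (-0.51 ± 0.11, limma adjusted p = 0.0848). The groups did not overlap on single arrays, with the lowest control at 10 and the highest proline at 9.66, and its 4 other probe sets measured -0.61, -0.35, -0.33 and -0.29. Ddx23, a component of the U5 particle, read 7.18 and 7.54 against 6.80 and 6.56 (-0.68 ± 0.18, limma adjusted p = 0.124). Dhx8, which releases the spliced mRNA, read 9.84 and 9.96 against 9.20 and 9.51 (-0.54 ± 0.15, limma adjusted p = 0.140). Dhx15, which takes spent spliceosomes apart, had probe sets on both sides of 0, at 0.16 and -0.13. Ddx42, tied to the U2 particle, measured -0.39 ± 0.13 (limma adjusted p = 0.179), with all proline arrays below all control arrays. Dhx38, which acts at the second catalytic step, measured -0.18, the export and splicing factor gene Ddx39b -0.03, Dhx35 -0.22 and Ddx41 0.07. Over the 10 splicing helicases 8 were below 0, against 56.1% of all genes, with a median of -0.30.

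Ribosome biogenesis helicases, which act in the nucleolus on precursors of the small and large subunit, numbered 16. None passed the threshold, and 6 had an unadjusted p under 0.05 in limma, all lower, against 9.32% of all genes. All 16 measured below 0, as did 56.1% of all genes, from -0.55 to -0.06, with a median of -0.38. Roles were assigned with earlier results of these data known, so the count of 16 is only a description. Ddx51, which acts on the large subunit, read 9.57 and 9.71 in control and 9.14 and 9.05 in proline (-0.55 ± 0.12, limma adjusted p = 0.0894). Its 6 control arrays lay at 9.53 or above and its 6 proline arrays at 9.20 or below. Ddx52, a small-subunit factor, read 9.41 and 9.26 against 8.92 and 8.89 (-0.44 ± 0.12, limma adjusted p = 0.130). Its other probe set gave nearly the same difference, -0.43.

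Not every nucleolar helicase was as even. Ddx21, which links RNA polymerase I transcription and ribosomal RNA processing, read 10.89 and 10.64 against 10.43 and 10.21 (-0.44 ± 0.15, limma adjusted p = 0.197), but its other probe set, of similar signal, measured 0.10. Ddx10, a small-subunit factor, read 10.94 and 10.87 against 10.57 and 10.23 (-0.51 ± 0.16, limma adjusted p = 0.161). Ddx50, a close relative of Ddx21, measured -0.44, Dhx33 -0.41, Ddx47 -0.39 and Ddx27 -0.38, each with the arrays of the groups apart. Their other probe sets measured -0.28 and -0.62 for Ddx50, 0 for Dhx33, -0.13 and 0.01 for Ddx47 and -0.47 for Ddx27. In Dhx37 (-0.38), Ddx55 (-0.35), Ddx54 (-0.24) and Ddx24 (-0.23) the arrays of the groups overlapped. Ddx56, Ddx49, Ddx18 and Ddx31 measured -0.17, -0.15, -0.14 and -0.06. Other probe sets measured -0.25 and -0.27 for Ddx49, -0.25 and -0.57 for Ddx18 and 0.05 for Ddx31. The group's median was -0.25 and -0.21 in proline replicate 1 minus control replicates 1 and 2, and -0.49 and -0.45 in proline replicate 2. Proline replicate 2 also had the lowest 18S signal, whose part in this was not tested. In these bulk cultures, fewer cells of a type and less RNA per cell cannot be told apart.

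Of the 6 nuclear regulators none passed, and 4 measured below 0 (median -0.09), against 56.1% of all genes. Ddx20, a subunit of the SMN complex that assembles spliceosomal particles, read 10.51 and 10.51 in control and 10.18 and 9.70 in proline (-0.57 ± 0.19, limma adjusted p = 0.186). Dhx9, which unwinds RNA and RNA-DNA hybrids during transcription, read 12.17 and 12.27 against 11.86 and 11.87 (-0.36 ± 0.11, limma adjusted p = 0.167). The co-regulators Ddx5 and Ddx17 lay close to 0 (-0.13 ± 0.14 and -0.06 ± 0.12), with probe sets of either gene on both sides of it. Ddx1, a partner of the tRNA ligase, measured 0.15 ± 0.12 and the G-quadruplex resolvase gene Dhx36 0.18 ± 0.11. The other probe sets of Dhx36 measured 0.45 and -0.05, and that of Ddx1 -0.08.

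Of the 7 helicases of export, translation and decay, 4 (57.1%) were below 0, near the 56.1% of all genes, with a median of -0.14. They held the only member with an unadjusted limma p under 0.05 on the higher side. This was Dhx34, a factor of nonsense-mediated decay, which read 7.54 and 7.17 in control and 7.88 and 7.74 in proline (0.46 ± 0.17, limma adjusted p = 0.216). Its groups overlapped on single arrays, with a highest control of 7.70 and a lowest proline of 7.66. Ddx3x, which helps translation start on structured mRNAs, read 12.49 and 12.70 against 12.91 and 12.63, so its groups overlapped. Its 2 other probe sets measured 0.22 and 0.40. Ddx6, the P-body helicase that represses translation, read 10.46 and 9.85 against 10.23 and 10.35, also overlapping. Ddx19b, which releases mRNA at the nuclear pore, measured -0.30 ± 0.12 (limma adjusted p = 0.239), but its 2 other probe sets measured -0.01 and 0.05. Dhx29, which helps ribosomes scan structured leaders, measured -0.27, Ddx25, known from male germ cells, -0.18, and the export factor gene Ddx39a -0.14.

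Among sensors of viral RNA, Ddx58, which encodes RIG-I, read 8.79 and 8.80 in control and 8.06 and 8.44 in proline (-0.55 ± 0.16, limma adjusted p = 0.154). Its proline replicates stood 0.38 apart. Its other probe sets measured -0.31 and 0.15, the latter under the 40th percentile of probe sets (mean 5.31). Ddx60 and Dhx58 (LGP2, a regulator of RIG-I signalling) read under the 40th percentile of probe sets in all 4 replicate means, where signal is not separated from background. Ddx60 read 3.39, 3.57, 3.54 and 4.36, with its highest value in proline replicate 2, and Dhx58 4.59, 4.61, 4.47 and 4.40.

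Of the mitochondrial helicases, Dhx30, which serves mitochondrial ribosome assembly, measured -0.39 ± 0.16 (limma adjusted p = 0.248), with other probe sets at -0.17, -0.41 and -0.38. Ddx28, also a mitochondrial ribosome factor, measured 0.06 ± 0.11. The remaining members besides Ddx43 were Dhx40 (-0.44), Ddx59 (-0.33), the DNA helicase gene Ddx11 (-0.29 ± 0.13), Dhx57 (-0.17) and Dhx32 (0.01).

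Several probe sets of 1 gene did not always give 1 direction. Of 30 members with at least 2 probe sets above the 40th percentile, 18 had them all on one side of 0 and 12 on both. The 50 other probe sets above that level had a median of -0.14, and 34 measured below 0. Neither of these counts was made over the probe sets of all genes. Probe sets of a gene share the RNA and the arrays, so they are not replicates.

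**Figure D3:**
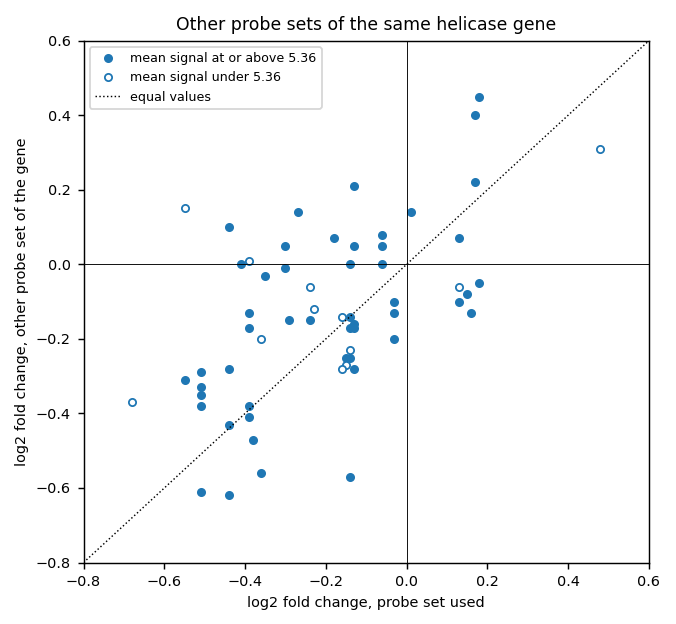
Log2 fold change of each other probe set of a member (vertical axis) against that of the probe set used (horizontal axis), with open points for a mean signal below 5.36, the 40th percentile. Of the 50 filled points, 34 lie below 0, and they scatter around the dotted line of equal values.

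Genes that work beside the helicases were given by lists. Among 49 other ribosome biogenesis factors, Noc3l, a large-subunit export factor, fell (10.22 and 10.14 to 9.10 and 8.70, -1.28 ± 0.17, limma adjusted p = 0.0387), none rose and 48 did not pass. In that list 45 were below 0, against 56.1% of all genes, with a median of -0.25. An unadjusted limma p under 0.05 was found in 11, all lower, against 22.1% of all genes (9.32% lower). Among 38 other spliceosome components, 2 fell, none rose and 36 did not pass. These were Cdc5l, a core component of the Prp19 complex (-0.85 ± 0.13, limma adjusted p = 0.0468), and Prpf3 of the U4/U6 particle (-0.80 ± 0.12, limma adjusted p = 0.0456). In that list 33 were below 0, with a median of -0.22, and 7, all lower, had an unadjusted limma p under 0.05. The shares of all genes are those given above. None of these 3 calls held with the median over probe sets or with every probe set tested by itself.

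The remaining lists held no gene past the threshold in limma. Other RNA helicases, such as the eIF4A family, had 17 of 21 below 0, a median of -0.15 and 4 genes at an unadjusted p under 0.05. Partners in export, translation and decay had 16 of 25 below 0, a median of -0.13 and 2 such genes. Genes of viral RNA sensing and the interferon response had 13 of 22 below 0, a median of -0.04 and 6 such genes. Over all these lists 3 of 154 distinct genes passed, against 4.36% of all genes. Of all genes, 22.1% had an unadjusted limma p under 0.05 and 56.1% were below 0. No list was tested against other genes.

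**Figure D4:**
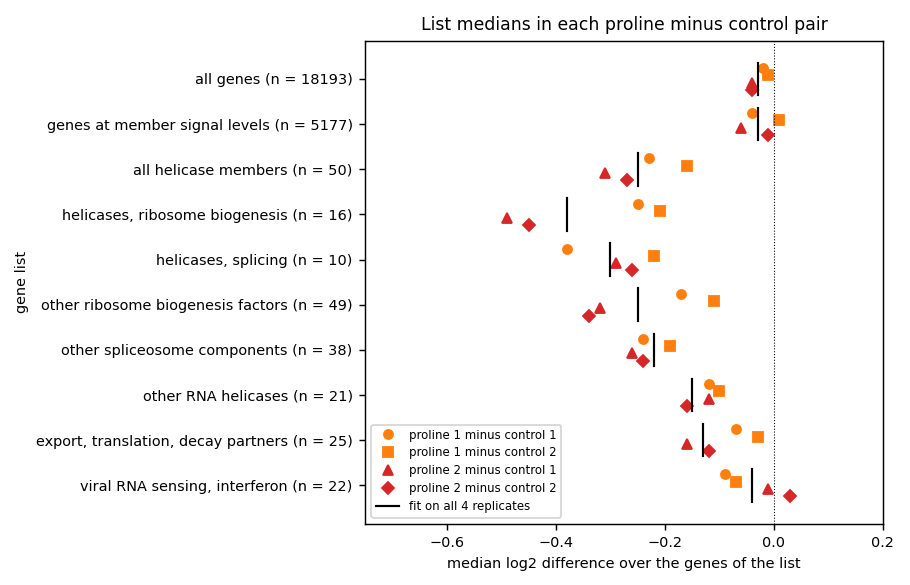
Median log2 difference over the genes of each list (horizontal axis) in each of the 4 proline minus control pairs, orange for proline replicate 1 and red for proline replicate 2, with a bar for the fit on all replicates. The ribosome biogenesis helicases lie between -0.49 and -0.21, the genes at member signal levels (mean signal of at least 8.89) between -0.06 and 0.01.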

How the data were processed

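The authors deposited normalized log2 signals, 45101 probe sets on each of 12 arrays. The submitters' processing notes name MAS5 and RMA without versions or roles. The array medians of 5.99 to 6.03 and the range of 2.10 to 14.8 have the form of RMA values. Detection calls were not used here, so signal under the 40th percentile of probe sets is not separated from background.

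Probe sets with exactly 1 platform symbol (34945) gave 18193 genes. limma 3.58.1 in R 4.3.3 compared the 4 biological replicate means (lmFit and eBayes, two-sided, no covariate, 2 residual and 2.6 prior degrees of freedom), with p adjusted over all genes by Benjamini and Hochberg's method and called under 0.05. An adjusted p printed for a member comes from that fit. With 2 against 2, the number of replicates limits the precision, and a p above the threshold does not show that a transcript was unchanged. The procedure was tested on simulated data. The members, roles and lists were chosen with earlier results of these data known.

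Named were members past the threshold, the 2 of smallest p in each role, the 6 largest differences each way, a fixed set of 10 well-known helicases, the extremes of signal, and up to 3 genes past the threshold in each related list. Others are given as examples of their group. Promoters are RefSeq windows. Plots used matplotlib 3.10.9.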

Additional observations from a re-analysis of the deposited data

How the results depend on the processing

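The fall of Dhx16 kept its direction under every alternative, with log2 fold changes of -1.46 to -1.32 when 1 replicate was left out. Of 10 alternatives with all replicates, testing every probe set by itself ended its call. That setting left 45 probe sets past the threshold in all, 0 of the members (none higher) and 0 of the related lists, with a median over member probe sets of -0.17. With the median over probe sets, 351 genes, Dhx16 among them, and 0 genes of the related lists passed, and the member median was -0.19. Taking the 12 arrays as independent gave 6804 genes, 27 members lower and 2 higher, and 70 genes of the related lists. A random block for the biological replicate gave 3987 genes, 15 members lower and 1 higher, and 37 of the related lists. With the replicate number as a block (replicate block), 2039 genes passed, 2 members lower (Dhx16 and Ddx43, adjusted p = 0.00954) and 8 of the related lists. Labels do not say that same-numbered replicates were paired, and the replicate differences of the 2 groups correlated across genes at 0.338.

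Leaving out 1 replicate left 0 genes, 0 members and 0 related genes past the threshold in limma, with 2766 to 3676 genes and 5 to 14 members at an unadjusted p under 0.05. In these fits 1 group has a single replicate, assumed to vary like the other group, so their p-values say little about stability. The members below 0 then numbered 39 to 41 and their median was -0.29 to -0.22. All 16 ribosome biogenesis helicases stayed below 0 in the alternatives run on genes. Ddx17 turned to 0.07 with the median over probe sets and ranged from -0.12 to 0.01 when a replicate was left out. It turned to 0.08 where probe sets that can bind other transcripts were used only in genes without any other probe set. That alternative was chosen after seeing the data. Dhx36 turned to -0.05 with the median over probe sets, and Ddx6 ranged from -0.18 to 0.44. None of these 3 passed in any of those fits. The cause was not tested.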

Other observations

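In the RefSeq order of assembly GRCm38.p6, the 5 protein-coding genes on each side of Dhx16 were all measured, and they were looked at after the value of Dhx16 was seen. None of these 10 passed the threshold in limma, 1 had an unadjusted p under 0.05, and their log2 fold changes ran from -0.40 in Ppp1r10 to 0.62 in Flot1. The nearest, Ppp1r18 and 2310061I04Rik, measured -0.13 ± 0.13 and -0.25 ± 0.12 (limma adjusted p = 0.629 and 0.341).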
